A study of Mus musculus with 7 samples.

Results

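The genes followed here act in STING signalling and cytosolic nucleic acid sensing: Tmem173, Tbk1, Irf3, Ddx58, Ifih1, Mavs, Zbp1, Adar, Trex1 and Samhd1. They are 10 of the 53458 genes with an entry, taken by name and selected on the CPM (reads relative to a scaled library total) of WT against Srp72+/- in these same libraries. Their levels by genotype are therefore given as a description, and the p-values beside them, from the fit over all genes, support nothing about the set. All 10 passed the filter on low counts that left 20314 genes for testing.

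Cells hold receptors that bind DNA or double-stranded RNA in the cytosol, where such molecules mark infection or leakage from the nucleus or mitochondria. DNA is read by cGAS, whose cyclic dinucleotide product binds STING (encoded by Tmem173) on the endoplasmic reticulum, and STING then travels to the Golgi and recruits the kinase TBK1, which phosphorylates the transcription factor IRF3. RNA is read by RIG-I (Ddx58) and MDA5 (Ifih1), which signal through MAVS on mitochondria to the same kinase and factor, and the output is type I interferon, a signal that can drive haematopoietic stem cells out of quiescence. TREX1, SAMHD1 and ADAR keep self nucleic acids below the threshold of detection.

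The material was RNA of long-term haematopoietic stem cells (LT-HSCs), sorted from the marrow of aged C57/BL6 mice as lineage-negative, Flt3- and CD48-negative cells positive for Sca1, cKit and CD150. The 4 WT libraries came from Srp72+/+ mice and the 3 others from mice heterozygous for Srp72 (Srp72+/-), which encodes a protein of the signal recognition particle. The labels state neither the age in months nor which part of Srp72 is altered, and name no treatment. The design compares the genotypes, and the samples were taken as 1 library per mouse. The p-values are therefore set against the spread between libraries. In that spread, differences between mice, sorting and amplification cannot be told apart.

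Libraries held between 18043823 and 35231677 estimated reads assigned to genes. Srp72 itself averaged 106.7 ± 20.7 CPM (SD, n = 4) over WT mice and 75.6 ± 32.2 CPM (SD, n = 3) over Srp72+/- mice, with overlapping groups, so its level does not separate the genotype labels. WT 2 stood apart from its label: the summed level of 12 stem cell markers was 197 CPM there against 2188 to 2799 CPM in the other WT libraries and 1408 to 2255 CPM in Srp72+/-. The sum of 10 neutrophil markers was 36778 CPM in WT 2, 119 to 8024 CPM in the other WT libraries and 1076 to 11798 CPM in Srp72+/-. The sum of 10 erythroid markers was 8173 CPM in WT 2 and 6161 CPM in Srp72+/- 1, against 402 to 1488 CPM elsewhere, and that of 10 B cell markers was 10262 and 4221 CPM against 56.7 to 1292 CPM. The genotype difference of each member and the median of each gene list are therefore given with and without WT 2, and without WT 2 and Srp72+/- 1 together. Both reduced fits keep Srp72+/- 3, which stood apart in megakaryocyte transcripts. The sum of 8 such markers was 749 CPM there, against 104 CPM in Srp72+/- 1, 176 CPM in Srp72+/- 2 and 24.2 to 252 CPM in WT. In such bulk samples fewer cells of a type and less RNA per cell cannot be told apart.

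Tmem173 was the member with the widest distance between the genotypes. Tmem173 (ENSMUSG00000024349, chromosome 18, 35733679 to 35740554 on the minus strand of GRCm38) was at 24.1, 38.01, 34.9 and 38.9 CPM in WT 1 to WT 4, against 16.5, 18.9 and 13.9 CPM in Srp72+/- 1 to Srp72+/- 3. Every Srp72+/- library lay below every WT library, with WT 1 nearest to the Srp72+/- range. Such a separation with lower values in Srp72+/- was found for 1.49% of all tested genes, and as Tmem173 was chosen with this contrast in view nothing is read from it. The group means were 33.98 ± 6.83 CPM (SD, n = 4) and 16.4 ± 2.5 CPM (SD, n = 3), a fitted ratio of 0.484 (95% confidence interval 0.312 to 0.751, not adjusted for the number of genes). This corresponds to a log2 fold change of -1.05 (standard error 0.28), which did not pass over all genes (edgeR quasi-likelihood test, adjusted p = 0.9998, and DESeq2 adjusted p = 0.323). In the edgeR fit 0% of all tested genes passed.

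The difference in Tmem173 was about as large without WT 2 and Srp72+/- 1. The libraries kept also held mature cell transcripts, with neutrophil marker sums of 8024 CPM in WT 3 and 4887 CPM in Srp72+/- 2. The part of such transcripts in the difference was not tested. WT 2, with the most neutrophil, erythroid and B cell RNA, was at 38.01 CPM, while Srp72+/- 1, the next highest in these markers, was at 16.5 CPM. Without WT 2 the log2 fold change was -0.99, and without WT 2 and Srp72+/- 1 it was also -0.99. Leaving out each library in turn gave values between -1.18 and -0.95. The annotation holds a single Tmem173 transcript of 8 exons and 2302 bases, so the value does not depend on how reads were divided among isoforms. Corrected for length, its level was between 2.22 and 7.54 TPM, and the estimated reads behind it ranged from 313 in Srp72+/- 1 to 867 in WT 4.

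**Figure D1:**
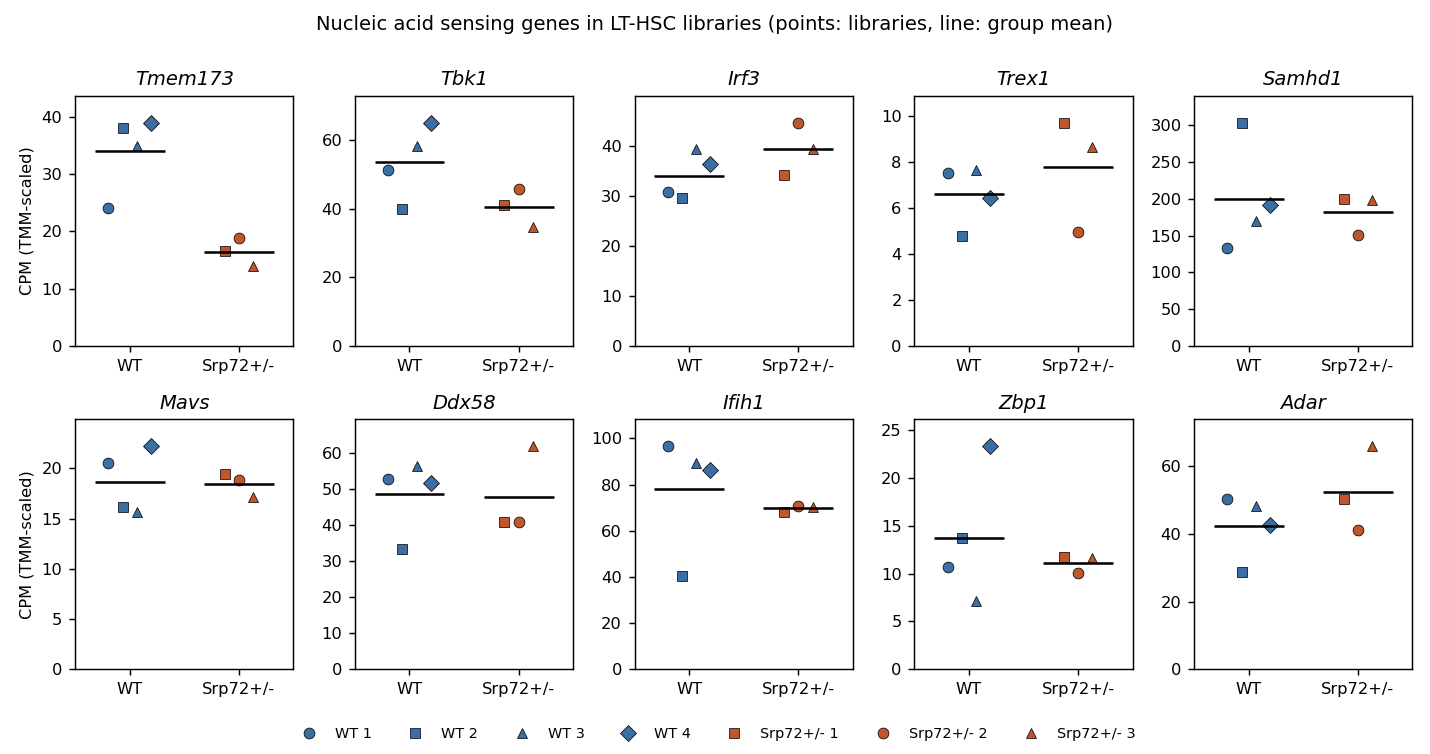
Level of each of the 10 genes in every library (vertical axis: TMM-scaled CPM, starting at 0; symbols: single libraries; line: group mean). Tmem173 is the panel in which the groups do not overlap, with 13.9 to 18.9 CPM in Srp72+/- and 24.1 to 38.9 CPM in WT.

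TBK1 and IRF3 are the kinase and the factor on which the DNA and RNA branches converge, and neither gene separated the genotypes. Tbk1 (chromosome 10, 121546455 to 121586787) was at 51.5, 39.99, 58.2 and 65.1 CPM in WT 1 to WT 4, against 41.1, 45.7 and 34.6 CPM in Srp72+/- 1 to 3. The 3 WT libraries other than WT 2 lay above all Srp72+/- libraries, and WT 2 lay inside the Srp72+/- range. How many of all tested genes separate in this way without WT 2 was not counted, so nothing is read from it. The fitted log2 difference was -0.41 (standard error 0.24; edgeR, adjusted p = 0.9998), or -0.52 without WT 2 and -0.54 without WT 2 and Srp72+/- 1. Irf3 (chromosome 7, 44997648 to 45002848) was at 30.7, 29.5, 39.3 and 36.3 CPM across WT, against 34.1, 44.5 and 39.3 CPM in Srp72+/-. These ranges overlapped over most of their width, and the log2 fold change was 0.21 (standard error 0.23), or 0.15 and 0.24 in the same reduced fits. Irf3 shares 88 exonic bases with Bcl2l12 on the opposite strand.

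The RNA receptors Ddx58 and Ifih1 carry an interferon-type motif close to their start in the RefSeq promoter table (GRCm38.p6), shown because both are known to be induced by interferon. The motif searched was GAAA followed, after 2 bases of any kind, by a second GAAA, on both strands of windows reaching 250 bases before and 50 bases after the start. It occurred in 3.44% of 32851 such windows, and in those of 2 of the 8 members that have an entry. Entries for Irf3, Tbk1, Samhd1, Mavs, Trex1 and Adar held no match, and Tmem173 and Zbp1 have no entry. The sequences are given on the strand of the gene, with the match in capitals, and in Ddx58 the match lies on the opposite strand:
Ifih1, chr2:62646206-62646233, minus strand: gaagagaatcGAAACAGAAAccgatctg
Ddx58, chr4:40239804-40239833, minus strand: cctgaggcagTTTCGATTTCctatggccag

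Ddx58 (chromosome 4, 40203773 to 40239828), which encodes the receptor of short RNA with a 5′ triphosphate, was at 52.8, 33.5, 56.6 and 51.7 CPM in WT 1 to WT 4, against 40.8, 41.0 and 62.0 CPM in Srp72+/- 1 to 3. Ifih1 (chromosome 2, 62595798 to 62646255), which encodes the receptor of long double-stranded RNA, was at 96.6, 40.2, 89.5 and 86.5 CPM across WT, against 68.2, 70.6 and 70.3 CPM in Srp72+/-. Both genes were lowest in WT 2, and the 3 Srp72+/- libraries were nearly level for Ifih1. The log2 fold changes were -0.02 for Ddx58 (standard error 0.27) and -0.16 for Ifih1 (standard error 0.31), with edgeR adjusted p = 0.9998 for each. For Ifih1 the 3 WT libraries other than WT 2 lay above all Srp72+/- libraries, at 90.9 ± 5.2 CPM (SD, n = 3). The share of all tested genes that separate in this way without WT 2 was not counted, so nothing is read from it. The log2 fold change of Ifih1 without WT 2 was -0.38 (edgeR, adjusted p = 0.977), or -0.36 without Srp72+/- 1 as well. For Ddx58 these reduced fits gave -0.16 and -0.056. When the fit took account of the average transcript length in each library, the signs turned to 0.31 for Ddx58 and 0.16 for Ifih1. Mavs (chromosome 2, 131234063 to 131248025), the adaptor of both receptors, was at 20.5, 16.2, 15.7 and 22.2 CPM across WT, against 19.4, 18.8 and 17.1 CPM in Srp72+/-. All Srp72+/- values of Mavs lay within the WT range, and its fitted ratio was 0.989 (95% confidence interval 0.650 to 1.51), or -0.016 on the log2 scale, with -0.074 and -0.12 in the reduced fits.

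**Figure D2:**
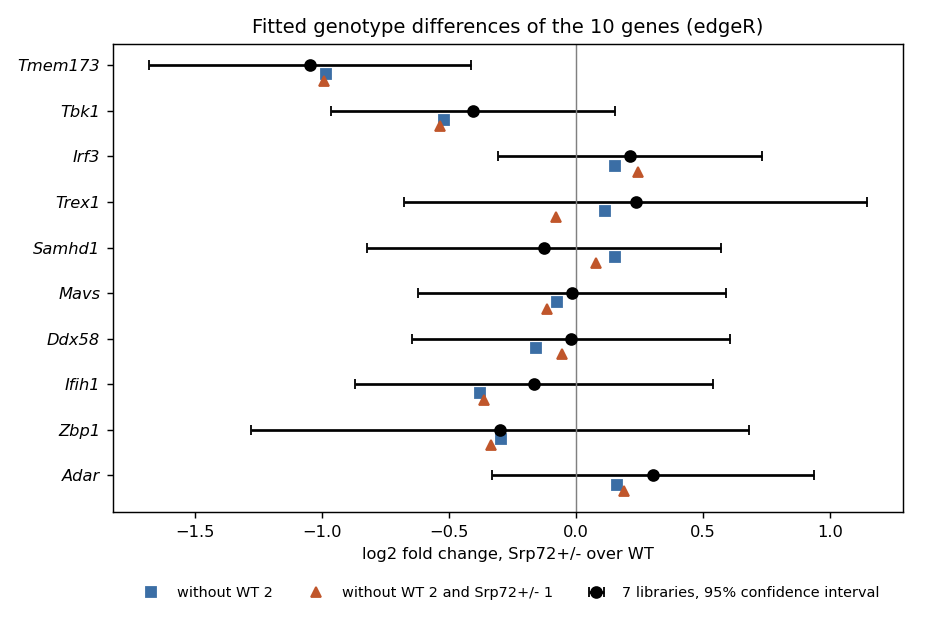
Fitted log2 fold change of each gene, Srp72+/- over WT (horizontal axis; black points and bars: all 7 libraries with 95% confidence intervals not adjusted for the number of genes; squares and triangles: fits without WT 2 and without WT 2 and Srp72+/- 1). Tmem173 stays near -1 in all 3 fits, while Samhd1 and Trex1 cross 0 between fits.

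ZBP1 and ADAR recognise nucleic acids in the left-handed Z form, ZBP1 to start cell death and ADAR to edit adenosines in double-stranded RNA so that it escapes detection. Zbp1 (chromosome 2, 173206612 to 173218923) was at 10.7, 13.8, 7.18 and 23.3 CPM in WT 1 to WT 4, against 11.7, 10.1 and 11.6 CPM in Srp72+/- 1 to 3. The WT libraries differed by 3.25-fold, the widest spread within a genotype among the 10 genes, and enclosed all Srp72+/- values, with a log2 fold change of -0.30 (standard error 0.43), or -0.30 and -0.34 in the reduced fits. Adar (chromosome 3, 89715022 to 89753446) was at 50.2, 28.8, 48.4 and 42.5 CPM across WT, against 50.2, 41.2 and 65.9 CPM in Srp72+/-. Its lowest value was in WT 2 and its highest in Srp72+/- 3, and the log2 fold change was 0.30 (standard error 0.28), or 0.16 and 0.19 in the reduced fits. Exons of Adar share 1365 bases with the antisense gene Chrnb2, whose reads cannot be told apart without strand.

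TREX1, the main cytosolic DNA exonuclease, and SAMHD1, which degrades deoxynucleotides and acts at stalled replication forks, remove the material the sensors would read. Trex1 (chromosome 9, 109057933 to 109059734) was at 7.55, 4.78, 7.66 and 6.46 CPM in WT 1 to WT 4, against 9.72, 4.98 and 8.66 CPM in Srp72+/- 1 to 3, the lowest mean CPM of the set. WT 2 and Srp72+/- 2 were the lowest libraries, the other Srp72+/- libraries lay above the WT range, and the groups overlapped through Srp72+/- 2, with a log2 fold change of 0.24 (standard error 0.40), or 0.11 without WT 2 and -0.079 without WT 2 and Srp72+/- 1. Its exons share 1147 bases with Atrip on the same strand, so the division of reads between them is uncertain. Samhd1 (chromosome 2, 157097533 to 157135265) was at 133, 303, 170 and 192 CPM across WT, against 199.98, 150.2 and 197.8 CPM in Srp72+/-. WT 2 was the highest of the 7 libraries for Samhd1, at 1.84 times the mean of the other WT libraries, and the log2 fold change turned from -0.13 with all libraries to 0.15 without WT 2 and 0.080 without both.

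The members differed in how WT 2 compared with the other libraries. Irf3, Trex1, Ddx58, Ifih1 and Adar, 5 of the 10, had their lowest value of all 7 libraries there, Samhd1 had its highest, and the ratio of WT 2 to the mean of the other WT libraries ran from 0.443 for Ifih1 to 1.84 for Samhd1. Tmem173 had a ratio of 1.17 and Zbp1 of 1.003. How many of all tested genes are lowest or highest in WT 2 was not counted, so nothing is read from these counts. WT 2 also had the lowest stem cell marker sum, 197 CPM, and the highest neutrophil, erythroid and B cell sums. Whether the members follow these sums over the libraries, and the part of the sums in this pattern, was not tested. Of the 12 stem cell markers 1, the endothelial protein C receptor gene Procr, was at or below 3 reads in WT 2, and 0 were in the other libraries. Of the 10 B cell markers 0 were at or below 3 reads in WT 2, against 2 to 4 of them in the other WT libraries.

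**Figure D3:**
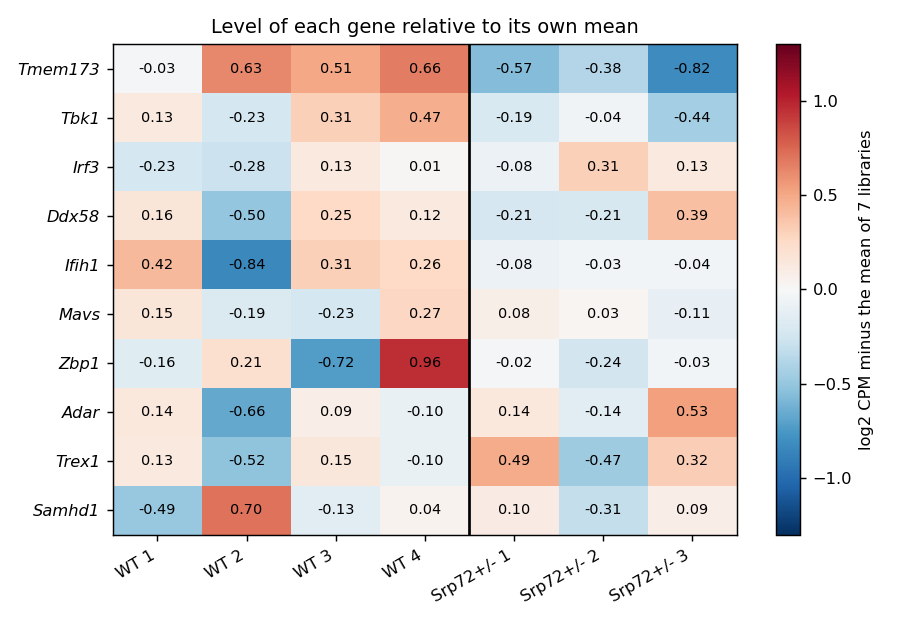
Log2 CPM of each gene minus its mean over the 7 libraries (rows: genes; columns: libraries; the number in each cell is the plotted difference). The Tmem173 row runs from -0.82 in Srp72+/- 3 to 0.66 in WT 4, and the WT 2 column holds the lowest value of 5 genes and the highest value of Samhd1. The share of all tested genes extreme in WT 2 was not counted.

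Over the set, 0 of the 10 genes passed in edgeR (0% of all tested genes passed) and 0 in DESeq2 (0.0447% of genes passed there). Fitted values were higher in Srp72+/- for 3 members and lower for 7, with a median log2 fold change of -0.07, against 10010 higher and 10304 lower and a median of -0.01 over all tested genes. Without WT 2 the median of the 10 was -0.12, and without Srp72+/- 1 as well it was -0.098. Its sign rested on 1 library, since single omissions gave -0.19 without Srp72+/- 3 and 0.021 without WT 4. In 9 of the 10 the groups overlapped, and in 0 did every Srp72+/- library exceed every WT library, a separation that 2.07% of all tested genes showed. At an unadjusted p below 0.05 there were 365 of the 20314 genes and 1 member, Tmem173. The biological coefficient of variation was 0.628, which limits what 7 libraries can show.

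Compared per length over transcripts annotated as coding, Samhd1 and Irf3 led the set, Irf3 through short entries. The TPM of protein-coding transcripts averaged 20.3 ± 3.6 (SD, n = 7) for Samhd1 and 16.1 ± 4.7 for Irf3, and Samhd1 was the higher of the pair in 5 of 7 libraries. Irf3 lay above Ifih1 (6.25 ± 2.19 TPM) in 7 of 7 libraries, with ranges that did not overlap. The coding TPM of Irf3 came mainly from Irf3-211 (369 bases, mean 8.61), Irf3-206 (869 bases, 2.79) and Irf3-204 (517 bases, 2.38). Its coding transcripts of 8 exons averaged 1.07, 0.83 and 0.40 TPM, so its place rests on how reads were divided among entries. Then came Tbk1 at 5.29 ± 1.64, Tmem173 at 4.95 ± 1.90, Zbp1 at 4.51 ± 2.88, Adar at 3.83 ± 1.61 and Trex1 at 3.75 ± 1.25 TPM. Neighbours in this stretch changed places between libraries, the upper member being ahead in 4 of 7 for Tbk1 over Tmem173, 4 of 7 for Tmem173 over Zbp1, 3 of 7 for Zbp1 over Adar and 4 of 7 for Adar over Trex1. Ddx58 at 2.74 ± 1.03 and Mavs at 2.49 ± 0.86 TPM closed the order. When TPM of all annotated transcripts was summed Ddx58 was at 14.3 ± 4.8 TPM, the third of the set, because short non-coding transcripts carried most of its per-length signal.

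The share of each gene held by its transcripts is a measure that the choice of genes did not use. Tmem173 and Trex1 had coding transcripts only. In Irf3 retained-intron transcripts held between 43.9% and 59.8% of the reads, and the most abundant entry was a retained intron of 1 exon and 635 bases. In Ddx58 transcripts annotated as processed and non-coding held between 37.99% and 85.5% of the reads, and the full coding transcript Ddx58-201 (18 exons, 3874 bases) had 0 reads in Srp72+/- 1 against 280 to 1271 in the other libraries. In Zbp1 the retained-intron transcript held between 25.5% and 84.7% of the reads. Such splits are estimates of the authors' tool, which can move reads between overlapping transcripts.

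**Figure D4:**
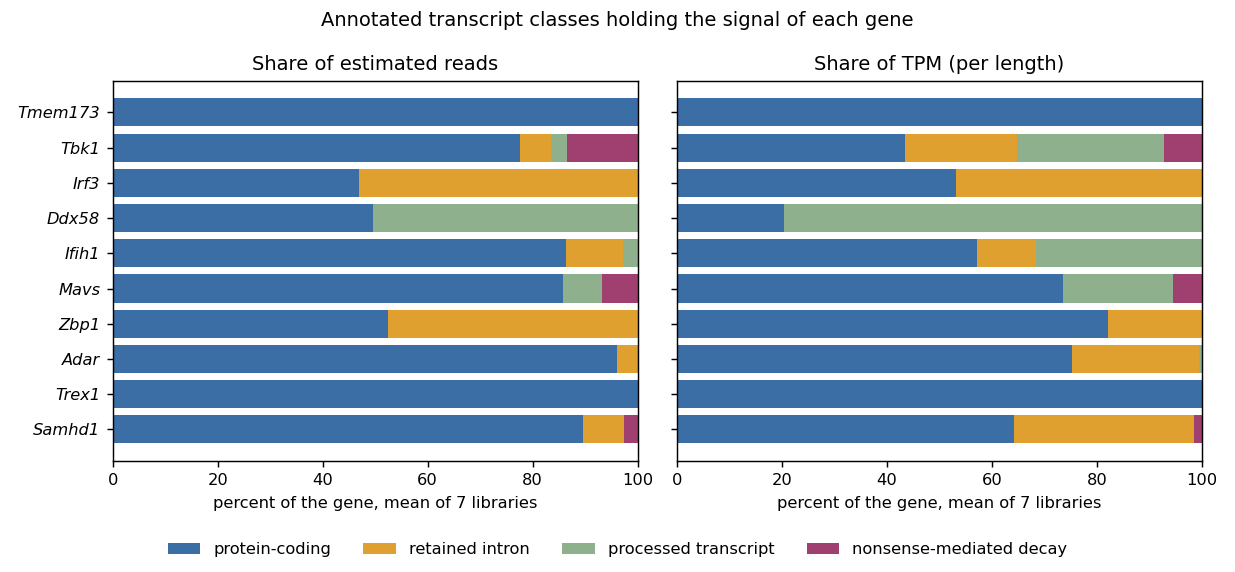
Share of each gene held by annotated transcript classes, as the mean of 7 libraries (left: percent of estimated reads; right: percent of TPM, which weights short transcripts up). Tmem173 and Trex1 are wholly protein-coding, while non-coding transcripts hold a mean of 79.7% of the TPM of Ddx58 and 50.4% of its reads.

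The share of the most abundant transcript was compared between the genotypes for the 9 members with more than 1 transcript. By TPM share the largest distance was in Ifih1, where the coding transcript Ifih1-202 (15 exons, 3616 bases) held 40.1%, 60.6%, 50.4% and 44.7% of the gene's TPM in WT 1 to WT 4 and 24.7%, 40.0% and 28.3% in Srp72+/- 1 to 3. All Srp72+/- shares lay below the WT shares, the nearest pair being WT 1 and Srp72+/- 2. How many of all genes separate in this way by transcript share was not counted, so nothing is read from the separation. The means were 49.0% ± 8.8 (SD, n = 4) and 31.0% ± 8.0 (SD, n = 3), a difference of -18.0 percentage points (two-sided exact permutation test over 35 splits, p = 0.0571, Benjamini-Hochberg over the 9 members p = 0.514). As a share of estimated reads the difference was -10.8 percentage points (exact p = 0.0571, adjusted p = 0.257). Without WT 2 the difference in TPM share was -14.1 points, and without WT 2 and Srp72+/- 1, a comparison added after the data were seen, it was -10.9 points. By TPM share the 8 other members had differences between -7.92 points for Adar-203 and 6.41 points for Ddx58-208, with an exact p of at least 0.343 each, where the smallest p that 35 splits allow is 0.0286. By share of reads Ddx58-208 differed by 2.36 points with the same p-values as Ifih1 (exact p = 0.0571, adjusted p = 0.257). Tbk1-201 differed by 16.7 points, more than Ifih1 (exact p = 0.371, adjusted p = 0.669). The short non-coding Ifih1-204 was at 8.65, 4.03 and 4.51 TPM in Srp72+/- and at 6.60, 0.521, 1.29 and 2.78 TPM in WT.

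Genes around STING and the other DNA sensors gave no call. Of 32 tested genes for STING traffic, ligand transport and turnover 0 passed, 12 had higher and 20 lower fitted values, and the median log2 fold change was -0.08. It turned to 0.080 without WT 2, was -0.027 without WT 2 and Srp72+/- 1, and reached -0.18 without Srp72+/- 3. Sar1a, a GTPase of the COPII coat that carries STING out of the endoplasmic reticulum, averaged 88.9 ± 3.5 CPM (SD, n = 4) over WT mice and 76.8 ± 3.0 CPM (SD, n = 3) over Srp72+/- mice, with every Srp72+/- library below the WT range and a log2 fold change of -0.21 (standard error 0.18). It was the 1 gene of this list with such a separation, which 1.49% of all tested genes showed, so nothing is read from it. Insig1, an endoplasmic reticulum regulator of sterol synthesis, had a log2 fold change of -0.99 (standard error 0.42), and the COPII gene Sec24c one of 0.09 (standard error 0.28). Of 21 tested DNA sensor genes 0 passed, 15 were higher and 6 lower, with a median of 0.11, or 0.070 without WT 2 and 0.054 without both. The sign of this median rested on 1 library: it was -0.060 without Srp72+/- 1 and 0.20 without Srp72+/- 2. Cgas, given for its role as the enzyme that makes the STING ligand, was at 21.3, 18.8, 27.9 and 16.1 CPM across WT, against 25.2, 13.9 and 26.8 CPM in Srp72+/-. Xrcc6, which encodes the DNA end-binding protein Ku70, was at 58.7 CPM in Srp72+/- 3 and between 20.8 and 28.1 CPM in the other 6 libraries. Ifi203, a PYHIN family gene, had 54.4 CPM in WT 2 against 167 to 211 CPM elsewhere.

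In the sentences that follow the WT mean (SD, n = 4) is given first and the Srp72+/- mean (SD, n = 3) next. Of 21 kinase, scaffold and factor genes 0 passed, 5 were higher and 16 lower, with a median of -0.09, or -0.072 without WT 2 and -0.089 without both. Single omissions gave -0.16 without WT 3, -0.15 without Srp72+/- 1 and -0.018 without Srp72+/- 2. Irf7, the interferon-induced relative of Irf3, averaged 14.4 ± 5.7 and 9.53 ± 3.26 CPM, and Azi2, a TBK1 scaffold gene, 53.8 ± 6.0 and 43.9 ± 11.99 CPM. Of 37 other RNA sensor and cofactor genes 0 passed, with 13 higher, 24 lower and a median of -0.12, which was 0.038 without WT 2 and 0.011 without both, and -0.056 without Srp72+/- 2. Dhx36, an RNA helicase gene, averaged 67.8 ± 10.01 and 49.7 ± 18.1 CPM, and Oasl1 rested on Srp72+/- 1, at 7.40 CPM against 1.10 to 2.15 CPM in the other libraries. Of 25 genes of nucleic acid breakdown 0 passed, with 17 higher, 8 lower and a median of 0.10, or 0.25 without WT 2 and 0.29 without both. Single omissions otherwise gave 0.022 without WT 4 to 0.22 without Srp72+/- 2. Pld3, a lysosomal exonuclease gene, averaged 26.1 ± 8.8 and 14.7 ± 4.0 CPM (log2 fold change -0.83, standard error 0.36), and Atad3a, a mitochondrial membrane ATPase gene, at 19.6 ± 4.1 and 31.2 ± 10.01 CPM. Of the 8 genes of the death machinery below ZBP1 0 passed, with 3 higher and 5 lower and a median of -0.08, or -0.028 without WT 2 and -0.047 without both. This median was -0.30 without Srp72+/- 3 and -0.026 without WT 3. Tnfrsf1a, a TNF receptor gene, was at 62.9 ± 17.8 and 44.1 ± 1.3 CPM.

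**Figure D5:**
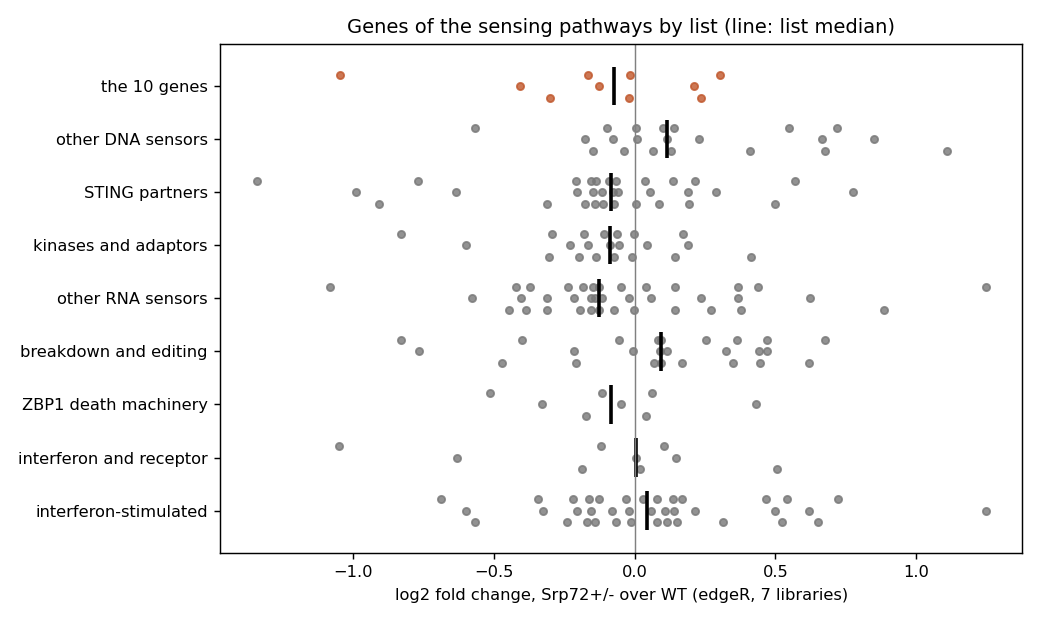
Log2 fold change, Srp72+/- over WT, of every tested gene in the lists (horizontal axis; points: genes, spread vertically only for legibility; black line: list median; some genes stand in more than 1 list). The medians lie between -0.12 and 0.11, and no gene in any list passed in the fit over all genes.

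At the end of the pathway receptor and response transcripts were present, while the interferon genes were near 0. Of the 15 genes for type I interferons and their receptor pathway 9 were tested, 5 higher and 4 lower, and 0 passed. Their median of 0.0067 was -0.076 without WT 2 and -0.094 without both, and single omissions gave -0.13 without Srp72+/- 1 to 0.048 without WT 3. The remaining 6 were interferon genes, with 0 CPM for Ifna4, Ifna5 and Ifne in every library at most 0.0889 CPM for Ifnb1, 0.0528 CPM for Ifna2 and 0.574 CPM for Ifnk. A limit of 3 reads, what a count of 0 allows, is 0.0852 to 0.166 CPM of the unscaled library totals. The CPM values beside it are TMM-scaled, so the scales are not the same. The limit covers counting error only. The receptor gene Ifnar2 averaged 41.7 ± 21.1 and 46.2 ± 13.1 CPM, WT first, and the kinase gene Jak1 at 256 ± 18 and 235 ± 22 CPM. Of 38 tested interferon-stimulated genes 0 passed, with 20 higher, 18 lower and a median of 0.04, which was -0.027 without WT 2 and -0.050 without both. It was -0.17 without Srp72+/- 3 and 0.14 without Srp72+/- 2, so its sign rested on single libraries. Ifitm3, an antiviral membrane protein gene, was at 427 ± 60 and 361 ± 178 CPM, Trim21, an antibody receptor and ubiquitin ligase gene, at 16.3 ± 6.4 and 25.1 ± 4.7 CPM, and Parp9, the partner of the ubiquitin ligase DTX3L, at 39.6 ± 15.4 and 26.7 ± 6.3 CPM.

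The profile of Tmem173 over the 7 libraries was closest to those of Fbxo31, Nova1, Rrs1, Anxa7 and Elof1. Likeness was the root-mean-square difference of log2 CPM, each gene centred on its own mean, over 10382 protein-coding genes of at least 5 CPM. It was 0.188 for Fbxo31, a ubiquitin ligase subunit gene, 0.211 for Nova1, an RNA-binding protein gene, 0.222 for Rrs1, a ribosome assembly gene, 0.223 for Anxa7, an annexin gene, and 0.237 for Elof1, an elongation factor gene, against a median of 0.720. Fbxo31 averaged 10.8 ± 1.5 CPM over WT mice and 5.88 ± 1.43 CPM over Srp72+/- mice, and Anxa7 65.4 ± 10.98 and 40.2 ± 7.8 CPM. Lower Srp72+/- means follow from how these genes were picked, by likeness to Tmem173, so they add nothing on the genotype. Among the other members Tbk1 was the nearest at 0.421, at place 241, and Adar the farthest at 0.831.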

How the data were processed

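RNA sequencing tables of 7 libraries were used, 4 WT and 3 Srp72+/-, grouped by their titles and taken as 1 library per mouse. Per the labels' protocols, RNA was amplified with the NuGEN Ovation system, which can enlarge differences between libraries. The deposited tables hold estimated counts and TPM per transcript, with lengths, made with Salmon 0.12.0 per the submitters' processing notes, which name mm10 and GRCm38.p6. Transcript release, bias options and strand setting were not given in the sources used here.

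Transcripts were matched to GENCODE M21 (136176 of 136288), summed per gene and rounded. Low counts were removed by edgeR's filterByExpr at a count of 10 and a total of 15, and libraries were scaled by TMM and tested with edgeR 4.0.16 (quasi-likelihood, robust, no covariate, Benjamini-Hochberg over 20314 genes, threshold 0.05) in R 4.3.3. CPM values are TMM-scaled. Standard errors were taken from the F statistic. Without molecular identifiers, amplified reads cannot be treated as independent molecules. DESeq2 1.42.0 and the other alternatives are in the closing section, and the procedure was tested on simulated data.

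Members and lists were chosen with earlier results of these data known. From each list up to 3 genes of highest mean TPM and up to 3 of smallest p were eligible for naming, and some are left out of the text. Cgas, the interferon genes, Procr, Ifih1-204 and Gm28439 fall outside that rule and were named after their values were seen. Same-numbered libraries of the genotypes were not paired by the labels. Transcript shares were compared by exact permutation.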

Additional observations from a re-analysis of the deposited data

Results flagged for a closer look

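Unusual libraries were sought with Dixon's ratio among the 4 WT libraries in 28 measures, on log2(CPM + 0.1) for single genes, and 2 exceeded its 95% critical value, where chance flags about 1 in 20. Ifih1 was at 40.2 CPM in WT 2, a ratio of 0.873, and the next lowest WT library was at 86.5 CPM. The stem cell marker sum of 197 CPM in WT 2 stands beside it, and its part was not tested. For Zbp1 the share of the transcript Zbp1-202 was 47.8% in WT 3, a ratio of 0.927, against 85.9% to 88.9% in the other WT libraries. Neither flag concerns a cell type marker sum, though WT 2 also stood apart in some of these sums. Its erythroid sum, for instance, was 8173 CPM against 402 to 604 CPM in the other WT libraries. The Srp72+/- group of 3 was too small for this ratio.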

How the results depend on the processing

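Alternatives were 2 other scalings (RLE, upper quartile), testing without a filter or with a stricter one, a length offset, DESeq2, a replicate block, omission of each library in turn, and omission of WT 2 with Srp72+/- 1 (for transcript shares added after the data were seen). The number of genes passing was 9 in DESeq2 and 0 to 1 over the fits without 1 library (1 without WT 4, the gene model Gm28439), and the number of the 10 genes passing was 0 in every fit. With the replicate number as a block 0 genes passed. Same-numbered libraries had correlations of -0.50, -0.19 and 0.01 of their deviations from the group means, and no library pair correlated best with its own number. So few pairs cannot tell whether same-numbered libraries share more than a number. Tmem173, Tbk1, Irf3 and Adar kept their sign in every fit, though omission of 1 library moved Irf3 between 0.096 (without Srp72+/- 2) and 0.29 (without Srp72+/- 1), and Adar between 0.098 (without Srp72+/- 3) and 0.44 (without Srp72+/- 2). With the replicate block the log2 fold change reversed to 0.087 for Mavs, 0.019 for Ddx58 and 0.13 for Zbp1, with the length offset to 0.31 for Ddx58 and 0.16 for Ifih1, with upper-quartile scaling to 0.011 for Mavs, and without WT 2 and Srp72+/- 1 to -0.079 for Trex1 and 0.080 for Samhd1. The cause was not tested. Without 1 library each, values ran from -0.28 to 0.15 for Samhd1, -0.11 to 0.055 for Mavs, -0.26 to 0.070 for Ddx58, -0.53 to 0.053 for Zbp1, 0.030 to 0.46 for Trex1 and -0.38 to -0.047 for Ifih1. Of the list medians, that of interferon-stimulated genes was 0.20 with the replicate block and that of nucleic acid breakdown 0.225 with the length offset, and that of the 10 genes turned to 0.053 with each of these. Differences in transcript share ran from -20.5 to 4.32 percentage points for Adar, -0.57 to 10.4 for Irf3, -6.94 to 20.7 for Mavs, -2.38 to 9.36 for Tbk1, -2.96 to 7.57 for Trex1 and -11.7 to 1.97 for Zbp1, and from -22.5 to -14.1 for Ifih1. Without WT 2 and Srp72+/- 1 that of Mavs reversed to -1.23. The 5 genes nearest to Tmem173 were the same 5 with RLE scaling. Trex1, with 74.6 to 286 reads, is limited most by depth.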
